A study of Mus musculus with 6 samples.

Results

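Transcripts of 10 genes that lengthen, desaturate or activate fatty acids were followed in sorted mouse photoreceptors after a guide RNA against Nr2e3: the elongases Elovl1 to Elovl7, the desaturases Fads1 and Fads2, and the acyl-CoA synthetase Acsl6. They were taken by gene symbol from the 49997 genes of the count tables, and all 10 were found. The set was chosen by enzyme family with the measured log2 fold changes and adjusted p of the guide against control comparison in view, in which Elovl2 stood among the called genes. The difference between guides in these genes is therefore a description, and an adjusted p printed for one of them places it within the fit over all genes and supports nothing further.

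Both groups were Rosa26-Cas9 mice, which express the nuclease SpCas9 in all cells, so the control animals carried Cas9 as well. Each eye received, under the retina, an adeno-associated virus with a 7m8 coat that carried a guide RNA against Nr2e3 (guide libraries, 3 mice) or a non-targeting control guide (control libraries, 3 mice). The same virus carried mCherry, a red protein, behind a human GRK1 promoter that restricts it to photoreceptors. Age at injection is given as postnatal day 21 in one label and as 4 weeks in another. About 100000 mCherry-positive cells were sorted 6 months later from the 2 retinas of each mouse, and each library is 1 mouse. Guide replicate 1 and all 3 control mice were male, and guide replicates 2 and 3 were female. Nr2e3 encodes a nuclear receptor of rods. The comparison sets the transcripts of photoreceptors 6 months after a guide against it beside those after a control guide. Nr2e3 itself stood at 2094, 1906 and 2244 CPM in guide replicates 1, 2 and 3 and at 1756, 1572 and 1507 CPM in control replicates 1, 2 and 3, where CPM is the count of a gene scaled to the normalised size of its library. Counts per gene do not show edited bases, so these values do not check the labels.

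Photoreceptor outer segments hold an unusually high share of docosahexaenoic acid (DHA) and of very long polyunsaturated fatty acids, which sit in the phospholipids of the disc membranes. Fatty acids are lengthened in the endoplasmic reticulum by a cycle of enzymes whose first step, carried out by an ELOVL protein, sets which chains are used. FADS1 and FADS2 insert double bonds between rounds of elongation. ELOVL5 and ELOVL2 act in turn on polyunsaturated chains on the way to DHA. ELOVL4 makes the very long chains, and its mutation causes a dominant macular dystrophy. ACSL6 couples DHA to coenzyme A, the form in which it enters phospholipids.

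The sequence before the transcription start is shown for Elovl2, the gene of the set that differed most between the guides, for Elovl4, its most abundant member, and for Fads2, the member with the lowest log2 fold change. Each is the 250 bases upstream of the start in RefSeq on GRCm38.p6, read 5′ to 3′ on the strand of the gene, and capitals mark the GC box GGGCGG or its reverse complement.
Elovl2: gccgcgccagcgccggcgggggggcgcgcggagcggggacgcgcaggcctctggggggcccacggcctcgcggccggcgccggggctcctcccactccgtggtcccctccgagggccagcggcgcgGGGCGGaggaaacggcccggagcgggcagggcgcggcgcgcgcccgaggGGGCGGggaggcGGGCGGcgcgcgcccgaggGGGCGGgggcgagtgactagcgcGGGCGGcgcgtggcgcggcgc
Elovl4: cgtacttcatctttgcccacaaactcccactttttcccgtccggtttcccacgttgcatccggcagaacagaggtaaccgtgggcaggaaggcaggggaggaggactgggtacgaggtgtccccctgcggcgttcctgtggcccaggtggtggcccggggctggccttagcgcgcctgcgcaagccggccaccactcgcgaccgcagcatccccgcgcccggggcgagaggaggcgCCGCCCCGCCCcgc
Fads2: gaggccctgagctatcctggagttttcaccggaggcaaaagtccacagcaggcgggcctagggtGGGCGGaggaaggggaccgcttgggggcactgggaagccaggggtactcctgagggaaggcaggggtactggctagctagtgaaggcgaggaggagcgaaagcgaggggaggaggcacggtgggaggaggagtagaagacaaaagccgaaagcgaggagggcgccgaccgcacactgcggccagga
The windows lie at chr13:41220404-41220653 (minus strand), chr9:83806306-83806555 (minus strand) and chr19:10101504-10101753 (minus strand).

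The Elovl2 window was 87.2% G or C, above 99.96% of the 27025 gene promoters of the same length, whose median was 52.0%. It held 49 CG dinucleotides, against a median of 6. The Elovl4 window was 69.6% G or C with 25 CG dinucleotides, and the Fads2 window 64.8% with 14. GGGCGG, searched on both strands, matched 5 times before Elovl2, 2 times before Elovl4 in overlapping copies, and 1 time before Fads2. It was present in 32.9% of all promoters. Neither AAGTCA, the hexamer known to be bound by NR2E3 (13.1% of promoters), nor TAATCC, a core bound by the photoreceptor factors CRX and OTX2 (6.38%), had a match in the windows of any of the 8 members with an entry. CCAAT (34.5%), also searched on both strands, matched in the windows of Elovl1, Elovl5 and Acsl6. In that of Elovl1 it overlapped a GC box. The Elovl1 window (chr4:118427843-118428092) lay inside the span given below for that gene. The Acsl6 and Elovl7 windows ran past the start of the spans given for theirs.

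Depth ran from 24705561 to 34286248 gene counts per library. A sum of 8 rod markers ran from 127067 to 127099 CPM with the Nr2e3 guide and from 112216 to 130037 CPM with the control guide. Control replicate 3 stood apart from the other controls: its microglia markers summed to 283 CPM against 30.4 and 33.1 CPM, and its cone markers to 3806 CPM against 7874 and 8324 CPM. In bulk RNA of sorted cells, a change in the number of cells of a type and a change in RNA per cell cannot be told apart.

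In control photoreceptors the set was dominated by Elovl4 when levels were set per kilobase (kb) of annotated exon. Elovl4 stood at 245 ± 20.2 CPM per kb, Elovl2 at 35.3 ± 6.70, and Acsl6 at 11.0 ± 1.44 (mean ± SD, n = 3). The next were Elovl6 at 3.44 ± 1.04 CPM per kb, Fads2 at 2.77 ± 0.401, Elovl5 at 2.23 ± 1.36 and Fads1 at 1.92 ± 0.371. Elovl1 was at 1.18 ± 1.27 and Elovl7 at 0.945 ± 0.327 CPM per kb. Elovl3, an elongase of saturated chains in skin and brown fat, had 0 counts in every library, which allows up to 0.0802 to 0.131 CPM by the limit of 3 counts per library, for counting error only. The steps from Elovl4 to Elovl2, from Elovl2 to Acsl6 and from Acsl6 to Elovl6 separated every control library. From Elovl6 down to Elovl7, each gene overlapped its neighbour in the order. With the longest transcript as the length, Acsl6 was at 18.8 CPM per kb and Fads1 at 2.67, and the order in controls stayed as given.

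**Figure D1:**
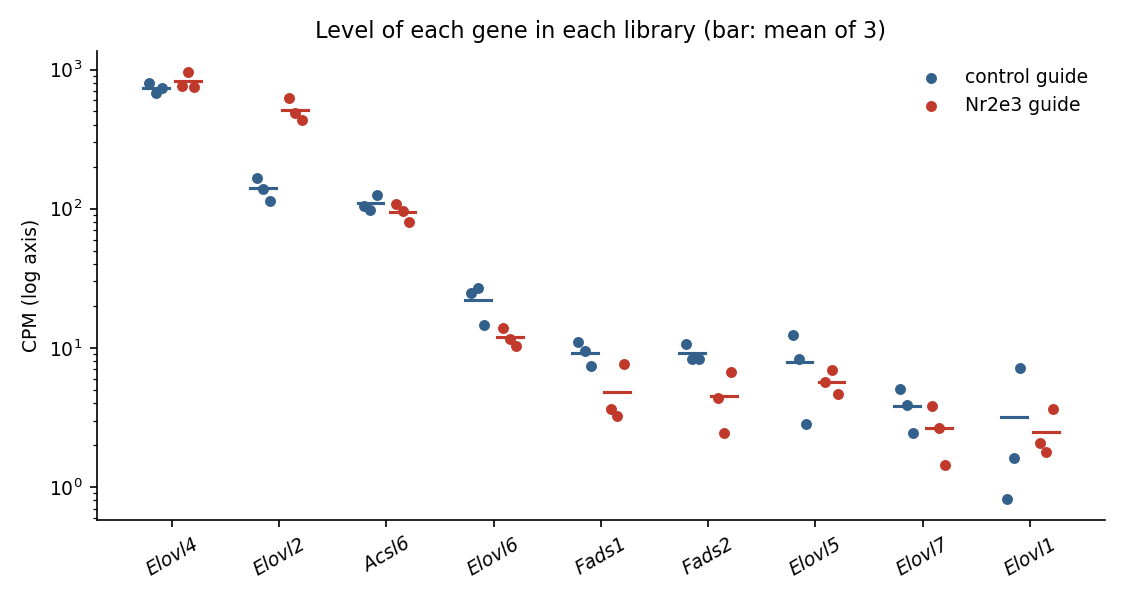
Level of each detected gene of the set in every library, in CPM on a log axis, with genes ordered by their control mean. Blue points are the 3 control and red points the 3 Nr2e3 guide libraries, and short bars are group means. Elovl2 is at 113 to 167 CPM in controls and 431 to 626 CPM with the guide, while Elovl4 overlaps between groups. Elovl3, at 0 counts throughout, is not drawn.

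Elovl2 (GRCm38 chromosome 13, 41182382 to 41220403, minus strand), an elongase of polyunsaturated chains on the way to DHA, was the only gene of the set called by edgeR. It stood at 626, 485 and 431 CPM in guide replicates 1, 2 and 3, and at 167, 140 and 113 CPM in control replicates 1, 2 and 3. Each guide library lay above each control library, and the male guide library was the highest of all. Means were 514 ± 101 and 140 ± 26.6 CPM, a 3.68-fold rise (log2 fold change 1.88, SE 0.20, edgeR adjusted p = 0.0157, n = 3 each). These values rest on 11137 to 16517 counts per guide library and 4242 to 5242 per control library. No exon of another GENCODE M21 gene overlaps those of Elovl2. The log2 fold change kept its direction, and the call was lost in 5 of the 6 fits that left out 1 library: leaving out control replicate 1 or 2 gave 2.02 and 1.88 with adjusted p = 0.0606 and 0.121, and leaving out guide replicate 1, 2 or 3 gave 1.71, 1.92 and 1.99 with adjusted p = 0.0745, 0.0694 and 0.0526. The call held without control replicate 3 (1.74, adjusted p = 0.0184) and without both replicate-3 libraries (1.86, adjusted p = 0.0291). With sex as a term it was 2.16 (adjusted p = 0.0985), and among males, with 1 guide library, 2.15 (adjusted p = 0.325).

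Elovl4 (chromosome 9, 83778692 to 83806305, minus strand), the elongase of very long chains, was at 768, 959 and 747 CPM with the Nr2e3 guide and 802, 679 and 743 CPM with the control guide. The groups overlapped, and the fitted log2 difference was 0.15 (SE 0.15, adjusted p = 0.995). Across the settings tried, that value ran from 0.03 to 0.23. Per kb of exon, Elovl4 exceeded Elovl2 by 6.31, 6.38 and 8.59 times in the control libraries and by 1.61, 2.59 and 2.27 times in the guide libraries.

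The make-up of the elongase transcripts is given as shares. Elovl2 took 13.3%, 13.1% and 10.2% of the summed elongase CPM per kb in control replicates 1, 2 and 3, and 37.9%, 27.5% and 30.2% in guide replicates 1, 2 and 3. Elovl4 took 85.1 ± 2.14% in controls and 66.9 ± 5.45% with the guide (mean ± SD, n = 3). The sum itself was 316, 268 and 280 CPM per kb in control and 417, 444 and 360 in guide libraries. These shares restate the contrast in which Elovl2 was chosen and carry no test.

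**Figure D2:**
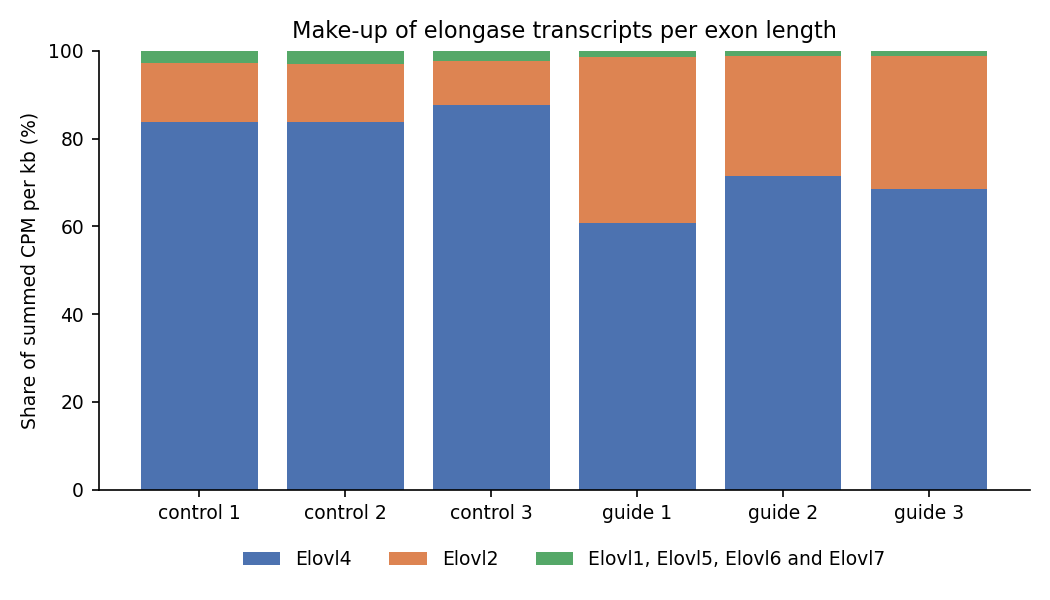
Share of each elongase in the summed elongase level per kb of exon, in percent, for the 3 control and 3 guide libraries. Elovl2 takes 10.2 to 13.3% in controls and 27.5 to 37.9% with the Nr2e3 guide, and Elovl1, Elovl5, Elovl6 and Elovl7 together are the thin top segment.

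Elovl5 (chromosome 9, 77917365 to 77984519), which acts on shorter polyunsaturated chains before ELOVL2, was scarce in these cells. It stood at 5.65, 6.88 and 4.65 CPM with the Nr2e3 guide and 12.4, 8.28 and 2.86 CPM with the control guide. The guide libraries lay within the span of the controls, and control replicate 3 was the lowest library of all. The log2 fold change was -0.46 (SE 0.50, adjusted p = 0.995), with 0.04 when control replicate 1 was left out and -0.86 when control replicate 3 was left out.

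Fads2 (chromosome 19, 10062765 to 10101503, minus strand), the desaturase of the first step on essential fatty acids, was at 4.36, 2.44 and 6.71 CPM with the Nr2e3 guide and 10.6, 8.37 and 8.34 CPM with the control guide. Each guide library lay below each control library. Its log2 fold change was -1.01 (SE 0.39) and did not pass (adjusted p = 0.779, unadjusted p = 0.0324). Fads1 (chromosome 19, 10182877 to 10196874), the second desaturase of the route, was at 3.64, 3.26 and 7.59 CPM with the Nr2e3 guide and 10.9, 9.43 and 7.37 CPM with the control guide. Guide replicate 3 overlapped the controls, and the log2 fold change was -0.93 (SE 0.38, adjusted p = 0.864, unadjusted p = 0.0435). Per kb, the ratio of Fads1 to Fads2 was 0.572, 0.917 and 0.775 in guide and 0.703, 0.772 and 0.606 in control libraries. With both replicate-3 libraries left out, a setting added after the data were seen, the log2 fold changes were -1.55 for Fads1 and -1.48 for Fads2 (adjusted p = 0.105 and 0.191).

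Elovl6 (chromosome 3, 129532386 to 129638495), which lengthens palmitate, was at 14.0, 11.5 and 10.3 CPM with the Nr2e3 guide and 24.7, 27.0 and 14.5 CPM with the control guide. The groups did not overlap, though control replicate 3 stood close to guide replicate 1. The log2 fold change was -0.89 (SE 0.28, adjusted p = 0.565, unadjusted p = 0.0136), and it ran from -1.12 to -0.66 across the settings tried. None of these settings brought Elovl6, Fads1 or Fads2 past the threshold, and their lowest adjusted p were 0.118, 0.105 and 0.191.

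Elovl7 (chromosome 13, 108214326 to 108287109), an elongase of saturated and monounsaturated chains, was at 3.83, 2.65 and 1.44 CPM with the Nr2e3 guide and 5.05, 3.89 and 2.43 CPM with the control guide. The groups overlapped (log2 fold change -0.52, SE 0.46, adjusted p = 0.995). Elovl1 (chromosome 4, 118426874 to 118432953), the broadly expressed elongase of saturated very long chains, was at 2.09, 1.78 and 3.62 CPM with the Nr2e3 guide and 0.826, 1.62 and 7.19 CPM with the control guide. Control replicate 3, with 269 counts, was the highest library, and the other controls were the lowest. The log2 fold change of Elovl1 was -0.36 (SE 0.77, adjusted p = 0.995) and turned to 1.03 without control replicate 3 (adjusted p = 0.694). The 10 microglia markers, none at 0 in any library, were highest in the same library: they summed to 283 CPM there, to 30.4 and 33.1 CPM in the other controls, and to 33.7 to 170 CPM in the Nr2e3 guide libraries, and their part in the Elovl1 value was not tested. Exons of Elovl1 and Cdc20 share 53 bases on opposite strands.

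Acsl6 (chromosome 11, 54303805 to 54364756), the DHA-preferring synthetase, was at 107, 96.3 and 80.6 CPM with the Nr2e3 guide and 104, 97.8 and 125 CPM with the control guide. The groups overlapped and the log2 fold change was -0.21 (SE 0.16, adjusted p = 0.995). Of its exon length, 2.04% is shared with Gm12224 on the opposite strand.

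Among the 10 genes, 9 passed the count filter, 1 was called higher (Elovl2) and 0 lower by edgeR, against 0.315% and 0.0292% of the 17138 genes tested. At an unadjusted p under 0.05 there were 4, of which 3 were lower in guide libraries, against 5.69% of all tested genes in either direction and 2.61% lower. DESeq2 and limma-voom also called Elovl2 and no other gene of the set. The groups did not overlap for 3 of the 9, 1 above and 2 below, against 12.1% of all tested genes, 6.2% above and 5.91% below. The median log2 fold change was -0.46 for the 9 and -0.01 for all tested genes, and 7 of the 9 were negative. Since the set was drawn up within this contrast, nothing is read from these counts.

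**Figure D3:**
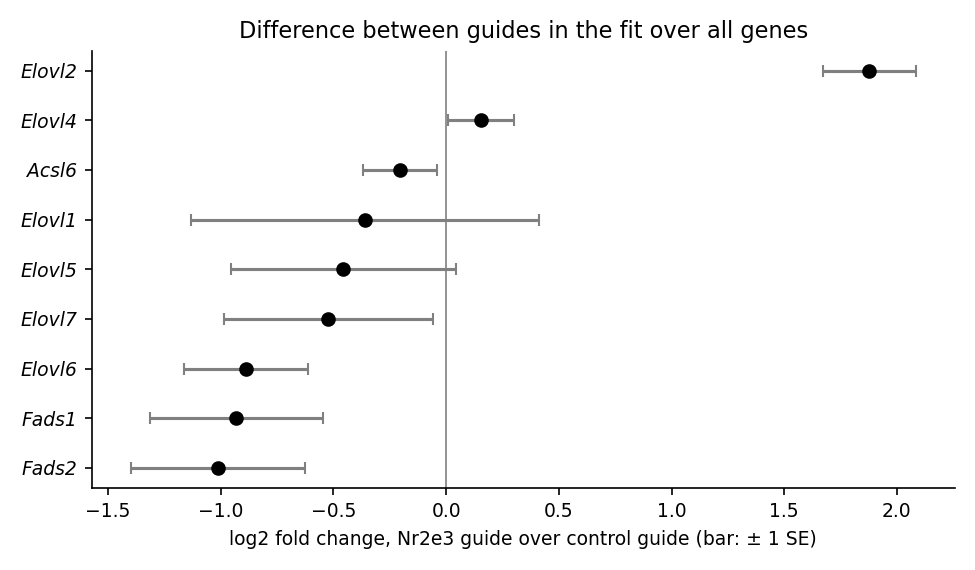
Log2 fold change of the 9 tested genes, Nr2e3 guide over control guide, with bars of 1 SE from the fit over all genes. Elovl2 stands at 1.88, Elovl4 and Acsl6 lie near 0, and Elovl6, Fads1 and Fads2 lie between -1.01 and -0.89 without passing the threshold.

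Cone markers were examined beside Elovl2. Of 10 cone markers, 3 stood higher in each guide library than in each control library, against 6.2% of all tested genes. These 3 were Gnat2, Pde6c and Pde6h, the last 2 named after their values were seen. The other 7 overlapped, and 0 of the 10 passed by edgeR, against 0.344% of all tested genes. The median log2 fold change of the 10 was -0.51, and of the 7 that overlapped, Opn1sw, Opn1mw, Arr3, Cnga3, Cngb3 and Gngt2 had lower means with the Nr2e3 guide and Gnb3 a higher one. Summed, the 10 ran from 13386 to 17246 CPM with the Nr2e3 guide and from 3806 to 8324 CPM with the control guide. Gnat2, the cone transducin subunit, had the highest mean of the 10 with the Nr2e3 guide, at 7612 CPM. With the control guide Gnat2 averaged 772 CPM, and Opn1sw was highest at 1890 CPM. Without Gnat2 the sums were 6110 to 8820 and 3622 to 7319 CPM and overlapped. The cone opsin Opn1sw, also named after its values were seen, was at 696 to 1575 CPM with the Nr2e3 guide and 382 to 3017 CPM with the control guide, and no cone marker was at 0 in any library. The part of cone RNA in the Elovl2 value was not tested. Of 5 horizontal cell markers, the sum was 87.6 to 114 CPM with the Nr2e3 guide and 47.6 to 83.6 CPM with the control guide, carried by Septin4; without it the sums were 2.05 to 5.88 and 1.90 to 5.31 CPM, and their part was not tested.

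Markers of Muller glia, the support cells of the retina, overlapped between groups. The 10 markers summed to 1364 to 1682 CPM with the Nr2e3 guide and 1281 to 1590 CPM with the control guide. All 10 overlapped, where 12.1% of all tested genes did not, and none was at 0 in any library. Clu had the highest mean with the Nr2e3 guide and Aldoc with the control guide. In control replicates 1, 2 and 3 Clu was at 327, 304 and 938 CPM. Without Clu the sums were 583 to 801 CPM with the Nr2e3 guide and 652 to 1012 CPM with the control guide. Of these sums, Aldoc alone made 408 to 566 CPM and 475 to 627 CPM. The median log2 fold change of the 10 Muller glia markers was -0.34. Pigment epithelium markers summed to 1.13 to 5.01 CPM with the Nr2e3 guide and to 0.748 to 18.2 CPM with the control guide, where control replicate 3 was the lowest. Among the controls, replicate 3 was also the lowest for Elovl2, Elovl5, Elovl6, Elovl7, Fads1 and Fads2, and the part of these markers in those genes was not tested. In control replicates 1 and 2, Dct was at 8.10 and 6.49 CPM and Pmel at 5.21 and 4.59 CPM, while Rpe65 and Lrat, which define that cell, were at or below 0.202 CPM in every library. Of these 8 markers, Rpe65, Lrat, Ttr, Best1, Dct and Tyrp1 were at 0 in at least 1 library. Bipolar cell markers summed to 509 to 587 CPM with the Nr2e3 guide and 576 to 657 CPM with the control guide. Without Otx2, a gene that photoreceptors also express, the bipolar sums were 178 to 295 and 341 to 399 CPM. These sums were lower in each guide library than in each control library, but no single bipolar marker was. Otx2 was higher in each guide library, against 6.2% of all tested genes, and the other 9 overlapped. Scgn was at 188 CPM in control replicate 3, against 55.4 and 47.3 CPM in control replicates 1 and 2. The part of the bipolar markers in the results was not tested. Amacrine markers summed to 61.5 to 278 and 132 to 336 CPM, and ganglion cell markers to 19.4 to 57.0 and 17.6 to 76.8 CPM. Astrocyte and vascular markers summed to at most 10.9 and 6.12 CPM in any library. Of the 86 markers in 11 lists, some fell below the count filter. None of those tested passed by edgeR, against 0.344% of all tested genes.

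**Figure D4:**
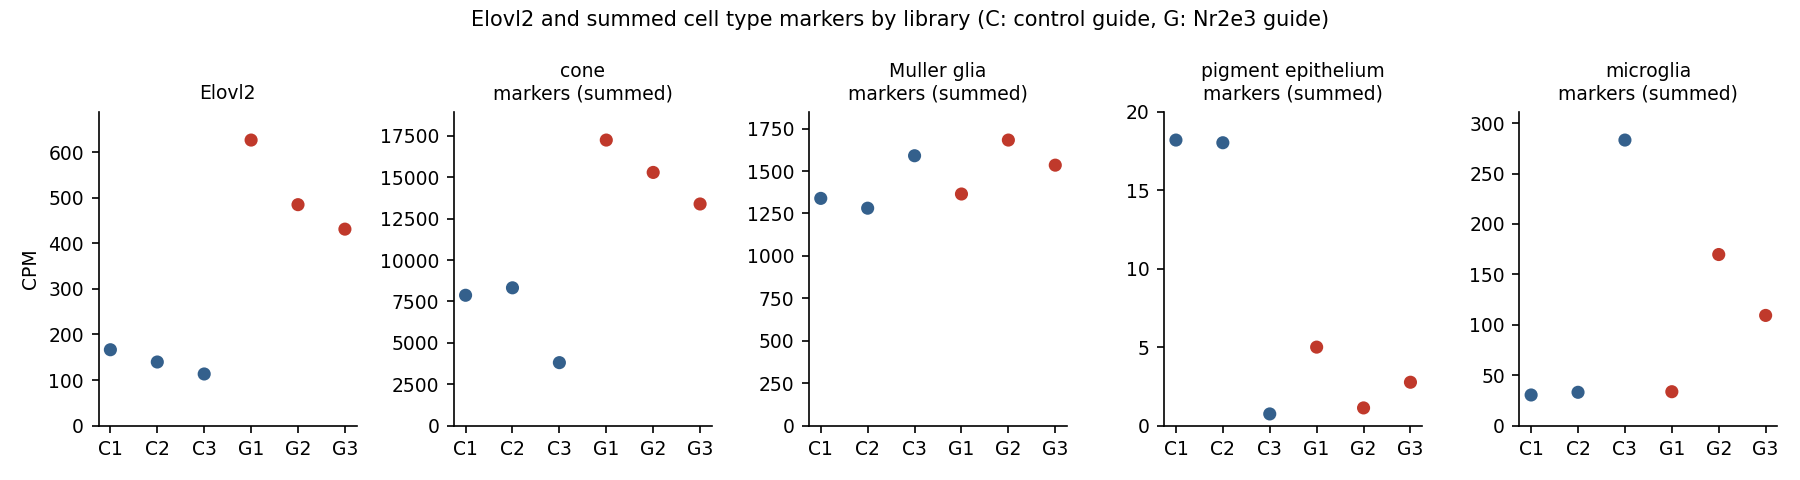
Elovl2 and the summed markers of 4 cell types in each library, in CPM on linear axes from 0, with controls C1 to C3 in blue and guide libraries G1 to G3 in red. Elovl2 and the cone sum, to which Gnat2 contributes most in the guide libraries, are higher in the 3 guide libraries, the Muller glia sum overlaps, and control replicate 3 has the lowest cone and the highest microglia sum.

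The genes most like Elovl2 across the 6 libraries were Rdh11, a retinol dehydrogenase (r = 0.994), Slc1a2, a glutamate transporter (r = 0.994), Megf9 (r = 0.993), Tnfaip3, an inhibitor of inflammatory signalling (r = 0.990), and Lca5, a ciliary protein of photoreceptors (r = 0.990). Likeness was Pearson's r of log2(CPM + 0.5) among 9534 genes with a mean of at least 5 CPM, and all 6 libraries share the group difference that chose Elovl2. Rdh11 stood at 114 ± 13.4 CPM with the Nr2e3 guide and 70.3 ± 5.07 CPM with the control guide, and Slc1a2 at 439 ± 56.0 and 246 ± 13.1 CPM (mean ± SD, n = 3 each). In each of the 5 the guide libraries lay above the control libraries, and 0 passed the threshold, with adjusted p from 0.0505 for Tnfaip3 to 0.520 for Lca5. The ranking was not stable: leaving out control replicate 2 left 0 of the 5 among the closest 5. Over the same libraries Elovl4 had r = 0.488 with Elovl2, Fads1 -0.775 and Fads2 -0.773.

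No other gene of the pathway was called. Of 104 genes in 10 lists by function, 88 passed the count filter and 0 were called by edgeR in either direction, against 0.344% of all genes. At an unadjusted p under 0.05 there were 7, all higher in guide libraries, against 3.08% of all tested genes higher. The median log2 fold change of the 88 was 0.0022.

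The enzymes that complete each elongation round did not pass. Tecr, the reductase of the last step, was at 610 ± 50.5 CPM with the Nr2e3 guide and 614 ± 34.5 CPM with the control guide (log2 fold change -0.01, SE 0.13, adjusted p = 0.998). Hacd3, a dehydratase of the cycle, was at 178 ± 26.4 and 156 ± 32.2 CPM (0.19, SE 0.19, adjusted p = 0.995). All 6 tested partners overlapped between groups, where 12.1% of all tested genes did not, with a median of 0.10.

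Among 7 other desaturases tested, 0 passed and 1 had an unadjusted p under 0.05, with a median of -0.04. That 1 was Scd3, a stearoyl-CoA desaturase named after its values were seen, at 23.3 ± 5.02 CPM against 12.6 ± 3.14 CPM in controls (0.88, SE 0.26, adjusted p = 0.520). Scd2, a desaturase that makes oleate, was at 68.3 ± 0.850 CPM with the Nr2e3 guide and 88.1 ± 15.5 CPM with the control guide (log2 fold change -0.37, SE 0.16, adjusted p = 0.896), and Degs1, which desaturates ceramide precursors, had -0.04 (SE 0.14). Of 5 tested genes of the electron chain that serves desaturases, Cyb5r1 had 0.07 (SE 0.15) and Cyb5b -0.10 (SE 0.16), and 0 had an unadjusted p under 0.05.

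Acsl1, a synthetase that activates long fatty acids, came closest to the threshold in these lists. It stood at 284, 259 and 303 CPM with the Nr2e3 guide and 138, 144 and 172 CPM with the control guide, without overlap (log2 fold change 0.90, SE 0.14, adjusted p = 0.0660). It passed without control replicate 3 (adjusted p = 0.0340), by DESeq2 (adjusted p = 0.000952), by limma-voom (0.00394), with no count filter (0.0168) and with a mean of at least 5 CPM (0.0453). Of its exon length, 9.91% is shared with Gm45244 on the opposite strand. Slc27a4, another synthetase, was at 29.3 ± 7.43 and 27.3 ± 16.6 CPM (0.10, SE 0.41, adjusted p = 0.996). Of the 12 genes of this list 6 were tested, with a median of 0.02.

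Enzymes that shorten chains in peroxisomes, the last step of DHA synthesis, did not pass in any of 13 tested genes, and 0 had an unadjusted p under 0.05 (median -0.06). Scp2, a thiolase and lipid carrier, had a log2 difference of 0.02 (SE 0.16). Of 8 tested genes that supply malonyl-CoA and saturated chains, 0 had an unadjusted p under 0.05 (median 0.06), with Acly, which makes cytosolic acetyl-CoA, at 0.21 (SE 0.13) and Mecr, a reductase of mitochondrial fatty acid synthesis, at -0.12 (SE 0.17).

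Among the acyltransferases that place fatty acids in phospholipids, Agpat3, which prefers DHA, was at 2440 ± 159 CPM with the Nr2e3 guide and 2390 ± 278 CPM with the control guide (log2 fold change 0.03, SE 0.14, adjusted p = 0.997), and Gpat4 had -0.06 (SE 0.13). Of 16 tested, 0 passed and 3 had an unadjusted p under 0.05, all higher in guide libraries (median 0.09). Those 3, named after their values were seen, were Agpat5 (0.68, SE 0.17, adjusted p = 0.330), Lpcat2 (0.76, SE 0.24, adjusted p = 0.565) and Lpcat4 (1.20, SE 0.51, adjusted p = 0.874).

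For uptake and binding, Adipor1, a receptor needed for retinal DHA, was at 613 ± 24.6 CPM with the Nr2e3 guide and 525 ± 30.8 CPM with the control guide (log2 fold change 0.22, SE 0.12, adjusted p = 0.959). Fabp12, a retinal fatty acid binding protein, was at 601 ± 124 and 409 ± 46.2 CPM (0.55, SE 0.19, adjusted p = 0.643). In both, guide libraries lay above control libraries, and 0 of 9 tested passed (median 0.05). Of 5 ceramide synthases tested, which use very long acyl chains among others, Cers4 had -0.00032 (SE 0.15) and Cers2 -0.14 (SE 0.32), with 1 at an unadjusted p under 0.05 (median -0.00032). That 1, named after its values were seen, was Cers3, at 2.73, 2.61 and 0.235 CPM in guide replicates 1, 2 and 3 against 0.222, 0.317 and 0.374 CPM in control replicates 1, 2 and 3 (2.58, SE 0.89, adjusted p = 0.670), and the groups overlapped. Of 13 regulators of lipid genes, 0 had an unadjusted p under 0.05 (median -0.10), with Ppara at -0.14 (SE 0.17) and Insig2, which retains sterol-regulated factors, at 0.11 (SE 0.15).

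**Figure D5:**
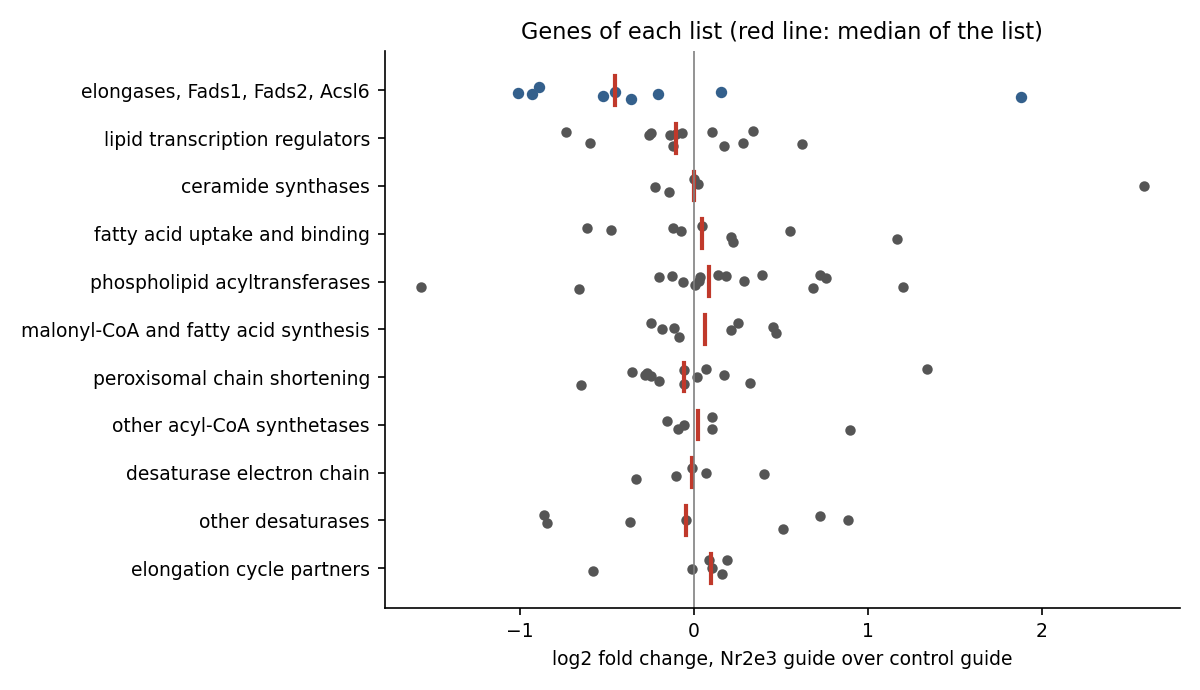
Log2 fold change, Nr2e3 guide over control guide, of each tested gene in 10 lists of the lipid pathway (grey) and in the set of elongases, desaturases and Acsl6 (blue), with red lines at list medians. Medians of the 10 grey lists lie between -0.10 and 0.10, and that of the blue set at -0.46. Elovl2, at 1.88, is the highest point of its row.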

How the data were processed

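Trizol RNA was made into cDNA by the SMARTer Ultra Low chemistry, per the labels' protocols, and this chemistry keeps no strand mark. The authors deposited raw read counts per gene symbol for each library. Per the submitters' processing notes, HTSeq 0.12.4, STAR 2.7.3a, DESeq2 1.42.0 and cutadapt were used with GRCm38 (mm10). For the annotation and strand setting, nothing is given in the sources used here. Entries that name no gene, 21.6 to 23.7% of counts, were dropped, 1.84 to 2.01% being ambiguous reads.

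The test was the quasi-likelihood test of edgeR 4.0.16 (R 4.3.3) on guide against control, with no covariate, TMM factors of 0.931 to 1.09, and filterByExpr at a minimum count of 10 and a total of 15. The p-values were adjusted by Benjamini-Hochberg over 17138 genes, with calls at 0.05. An SE is the absolute log2 fold change over the root of the F statistic. Means are ± SD over 3 mice. The fit was tested on simulated data. Alternatives included DESeq2 1.42.0 and limma 3.58.1.

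Members and lists were chosen with earlier results of these data known. Named genes are the 10 members, in each list up to 4 called genes or the 2 highest in controls, the 5 most like Elovl2, and the highest markers, apart from items that are not reported here. Exon lengths and overlaps are from GENCODE M21, coordinates and promoters from RefSeq GRCm38.p6. The 6 libraries differ beyond sampling noise within groups, and replicate numbers mark different mice.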

Additional observations from a re-analysis of the deposited data

How the results depend on the processing

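Elovl2 was higher in guide libraries in all 16 alternatives and passed the threshold in 9, with log2 fold changes from 1.71 to 2.16 and adjusted p from 1.44e-11 to 0.325. It did not pass with sex as a term (2.16) or among males only (2.15), and leaving out 1 library gave 1.71 to 2.02. The replicate numbers mark different mice. Deviations from the group mean correlated at 0.136, -0.144 and 0.0441 between libraries of the same number. Between libraries of different numbers these correlations ran from -0.1865 to 0.1452. Such deviations cancel within each group of 3, so these values cannot tell whether libraries of the same number shared a batch. With a replicate block, Elovl2 had 1.88 (adjusted p = 0.0163) and the counts over all genes were 31 higher and 1 lower.

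Against 54 genes higher and 5 lower, there were 130 and 25 with no count filter, 6 and 0 with sex as a term, 0 and 0 among males, 186 and 57 by DESeq2, and 160 and 19 by limma-voom. Leaving out 1 library gave 14 to 80 higher and 0 to 9 lower. Of the 10 genes, 0 were called with sex as a term or among males, and 0 to 1 without 1 library. Of the pathway genes, 1 was called with no filter, with at least 5 CPM, by DESeq2 and by limma-voom, and 0 to 1 without 1 library, with Acsl1 at 0.88, 0.89, 0.89 and 0.97. Of the 5 genes most like Elovl2, 0 to 2 were found again without 1 library. Per kb of the longest transcript, control levels were 2.67 CPM for Fads1 and 18.8 CPM for Acsl6.

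The direction of the following log2 fold changes, none of which passed, turned under an alternative, and the cause was not tested. Elovl1 had 0.13 with the replicate block, 0.66 without both replicate-3 libraries, 0.68 by limma-voom and -0.81 to 1.03 without 1 library. Elovl5 ranged from -0.86 to 0.037 without 1 library. Elovl7 had 0.015 with sex as a term and 0.0019 among males, and Acsl6 had 0.012 without both replicate-3 libraries. With sex as a term and among males, Hacd3 had -0.0081 and -0.021, Scp2 -0.065 and -0.077, Cers2 0.14 and 0.12, and Cers4 0.12 and 0.11. With upper-quartile factors Scp2 had -0.0063 and Agpat3 -0.0024. Without both replicate-3 libraries Degs1 had 0.029, Cyb5b 0.026, Agpat3 -0.075 and Cers4 0.085. By limma-voom Cyb5b had 0.00063, Agpat3 -0.043 and Cers4 0.055, and with the replicate block Cers4 had 0.0031. Without 1 library, Tecr ranged from -0.083 to 0.030, Degs1 from -0.15 to 0.011, Cyb5b from -0.18 to 0.021, Cyb5r1 from -0.035 to 0.22, Slc27a4 from -0.16 to 0.72, Scp2 from -0.15 to 0.12, Agpat3 from -0.067 to 0.085, Gpat4 from -0.13 to 0.0092, Cers2 from -0.33 to 0.14 and Cers4 from -0.094 to 0.091. The males-only fit has 1 guide library, assumed to vary like the others. Leaving out both replicate-3 libraries was chosen after seeing the data.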
